A study of Caenorhabditis elegans with 2 samples.

Results

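The distal intergenic peaks of PAG-3 were the 239 of 910 thresholded peaks (26.3%) whose summit lay in no annotated gene and away from every annotated protein-coding start. The peaks came from chromatin immunoprecipitation with sequencing (ChIP-seq) in whole Caenorhabditis elegans, kept by the authors for reproducibility between replicates (the irreproducible discovery rate, IDR). A summit, the highest point of a peak, was distal intergenic when it lay outside the bodies of genes of every biotype except piRNA genes and more than 1000 bp upstream or 200 bp downstream of each protein-coding start. Of the other peaks, 408 lay in these stretches around a start (promoter windows), 208 in introns of protein-coding genes and 55 elsewhere in genes.

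The animals were hermaphrodite larvae of the first stage (L1) of strain OP154, genotype unc-119(ed3) III; wgIs154, in which an integrated transgene makes PAG-3 with GFP and FLAG at its C-terminus. They had been starved after bleaching and were taken 6 hours after synchronization, and an antibody against GFP was used for the precipitation. The 2 biological replicates formed the 1 group, and no control sample was analysed here. Whole animals were used, so a peak's height cannot tell many weakly bound cells from few strongly bound ones, and no value here shows in which cells a peak arose. Places bound by many unrelated proteins in ChIP-seq were not marked here, and the number of reads behind a peak is unknown.

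PAG-3 belongs to the Gfi1 family of zinc finger proteins, whose mammalian members repress transcription, and it is known for its part in the fates of touch neurons and ventral cord neurons. Sequence-specific factors bind both next to gene starts and at distal elements, among them enhancers, which can act on a gene from either side and over a distance. The nearest start is therefore a label of position, not a shown target. In C. elegans many transcripts are trans-spliced, so transcription can begin upstream of the annotated start.

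The sequences around 10 of the 20 highest distal summits are shown because the word counts given later rest on such windows; they were picked for high signal and for genes described below. Each runs over 101 bases centred on the summit, read 5′ to 3′ on the plus strand of ce11 (WBcel235) from the RefSeq genome, and is named by its nearest protein-coding start. Capitals mark 6 short words on either strand. They are the repeat GAGAGA, the word ATGGCA with the shorter word TGGCA inside it, the word GACGCA, the E-box form CACGTG and the core of the Gfi1 site, AATCAC. Because one word lies inside another, a capital run can hold both, and runs that touch are joined.
C46G7.2 peak, chrIV:6014011-6014111: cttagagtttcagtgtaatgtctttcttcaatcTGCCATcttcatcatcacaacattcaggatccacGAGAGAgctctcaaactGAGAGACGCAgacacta
atn-1 peak, chrV:12477283-12477383: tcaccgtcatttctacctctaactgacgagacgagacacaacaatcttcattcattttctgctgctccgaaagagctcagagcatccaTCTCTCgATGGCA
Y69A2AR.1 peak, chrIV:2665547-2665647: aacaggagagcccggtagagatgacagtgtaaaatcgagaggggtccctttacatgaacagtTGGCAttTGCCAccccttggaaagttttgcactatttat
pfkb-1.2 peak, chrIV:5940686-5940786: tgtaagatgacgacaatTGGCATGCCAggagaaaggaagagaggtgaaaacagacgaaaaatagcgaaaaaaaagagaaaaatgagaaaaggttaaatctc
Y67D8B.1 peak, chrIV:3168921-3169021: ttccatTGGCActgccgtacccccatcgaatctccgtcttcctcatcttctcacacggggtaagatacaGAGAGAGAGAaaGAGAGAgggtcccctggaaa
aakg-1 peak, chrIII:12583643-12583743: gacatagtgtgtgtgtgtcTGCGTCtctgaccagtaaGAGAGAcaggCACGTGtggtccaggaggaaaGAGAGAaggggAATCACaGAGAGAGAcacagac
pat-2 peak, chrIII:8815865-8815965: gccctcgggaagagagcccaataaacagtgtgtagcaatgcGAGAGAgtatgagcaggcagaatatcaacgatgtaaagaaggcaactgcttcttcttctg
unc-68 peak, chrV:6930421-6930521: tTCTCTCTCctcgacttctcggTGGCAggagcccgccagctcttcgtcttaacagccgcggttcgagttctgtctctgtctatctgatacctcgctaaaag
sup-26 peak, chrIII:4281955-4282055: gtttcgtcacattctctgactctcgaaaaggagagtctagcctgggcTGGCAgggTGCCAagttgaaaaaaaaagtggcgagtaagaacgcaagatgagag
let-2 peak, chrX:16392168-16392268: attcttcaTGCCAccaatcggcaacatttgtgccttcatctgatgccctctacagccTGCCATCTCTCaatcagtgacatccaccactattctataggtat

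In these windows the words occur alone, in tandem and facing each other. The aakg-1 window held several copies of GAGAGA or its complement, together with the other words except ATGGCA and the word inside it. The pfkb-1.2 window held TGGCA directly followed by its reverse complement, and the Y69A2AR.1 and sup-26 windows held the same pair with a few bases between. AATCAC was found in the aakg-1 window and in none of the other 9 shown.

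The deposited signal of the distal intergenic peaks had a median of 61.6, with an interquartile range of 49.2 to 87.8 and a range of 43.4 to 548. The other 671 thresholded peaks had a median of 57.3 (interquartile range 48.7 to 75.5), and their highest signal was 1509. The interquartile ranges overlapped. A signal above 100 was reached by 44 distal peaks (18.4%, Wilson 95% interval 14.01 to 23.8) and by 103 of the others (15.4%, 12.8 to 18.3). A signal above 200 was reached by 8 distal peaks (3.35%, 1.71 to 6.46) and by 35 others (5.22%, 3.77 to 7.17). These intervals overlapped, and no test between places was run. All intervals cover counting error only.

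Before thresholding, the pooled list of both replicates held 6822 regions with a distal intergenic summit, of which 239 (3.5%) were among the thresholded peaks. The same share was 3.03% of all 30000 pooled regions, 4.99% of those in promoter windows and 2.31% of those in introns. The pooled list includes background by its description, so these shares describe its make-up and not a rate of binding.

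Most distal peaks were found again in each replicate's own ranked list. Within 100 bp of the summit, replicate 1 held a region for 232 peaks (97.1%) and replicate 2 for 207 (86.6%), and 201 (84.1%, 78.9 to 88.2) had one in both. For the other thresholded peaks the share in both was 82.0% (78.9 to 84.7). Each replicate list holds 30000 regions, so a match alone can come from its tail. In replicate 1 no matched distal peak ranked past 5000, whereas 24 did in replicate 2, and 101 peaks (42.3%) were among the highest 910 of both lists against 38.2% of the other peaks. The median rank of the matched distal peaks was 412 in replicate 1 and 548 in replicate 2. Both replicates entered the thresholding, so their lists are not independent of the choice of peaks.

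**Figure D1:**
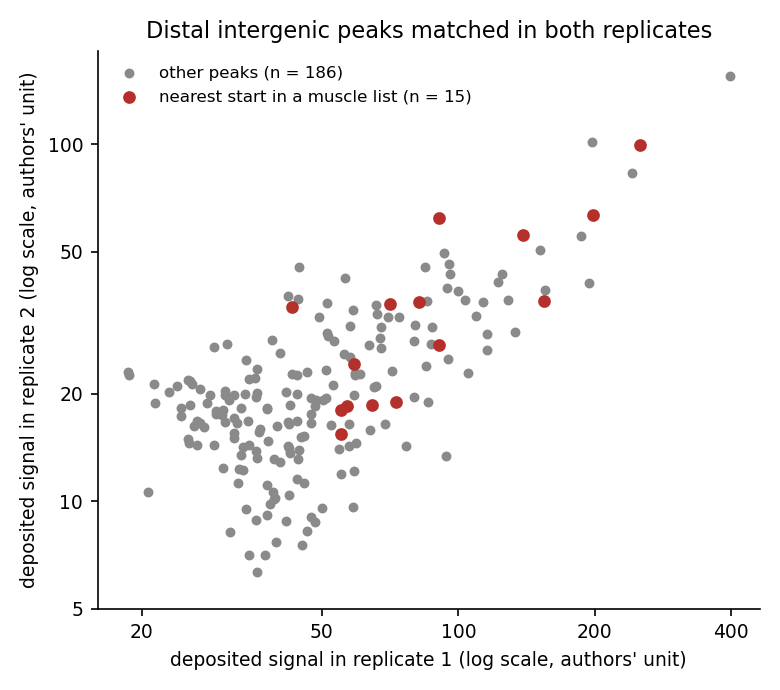
Deposited signal in replicate 1 (horizontal, log scale) and replicate 2 (vertical, log scale) for the 201 distal intergenic peaks with a region within 100 bp in both lists; each point is 1 peak and red points are peaks nearest to genes of the 2 muscle lists. The C46G7.2 peak stands at the upper right, at 397 and 155, and the points spread widely at low signal.

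The highest distal peaks were high in both replicates. Of the 20 highest, 17 were among the highest 100 regions of each replicate. Over the 201 matched peaks the signals of both replicates had a Spearman correlation of 0.54 and a Pearson correlation of log2 signal of 0.66, as a description across peaks of the same 2 libraries. Over the 550 other matched peaks the Spearman correlation was 0.36 and the Pearson correlation of log2 signal 0.62. The replicate signals are on a scale that is not stated, so their levels were not compared with each other.

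The highest distal peak lay 1134 bp upstream of C46G7.2 on chromosome IV, with a signal of 548. Its signal was 397 in replicate 1 (rank 6) and 155 in replicate 2 (rank 5). It lay in a divergent gap, where the genes on either side are transcribed away from each other, and had no other thresholded summit within 18552 bp. The second was at 1078 bp from the start of atn-1, on its upstream side. This gene encodes alpha-actinin, a cross-linker of actin at the dense bodies of muscle, and the peak had a signal of 350 (252 and 99.5 in replicates 1 and 2). The third, in a divergent gap upstream of Y69A2AR.1, had a signal of 325 (242 and 83.2), and the fourth, upstream of pfkb-1.2, had 299 (197 and 101). These 4 peaks ranked between 5 and 26 in both replicates, and all 4 lay between 1078 and 1453 bp from the nearest start.

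The next highest lay farther from a start. The tln-1 peak (talin, the link from integrin to actin) had a signal of 258 (198 and 63.2) at 2336 bp upstream on chromosome I. The Y67D8B.1 peak had 243 (187 and 55.3), and it was in a convergent gap, 3639 bp downstream of the start. The Y54G2A.11 peak had 236 (194 and 40.7) and the T03G6.3 peak 202 (151 and 50.5). The summit nearest to aakg-1, which encodes a gamma subunit of AMP-activated protein kinase, lay 8292 bp upstream in a gap of 20592 bp, with a signal of 197 (156 and 38.995). It was the farthest from a start among the 20 highest.

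The remaining 11 of the 20 highest had signals between 141 and 197. They included peaks nearest to pat-2, an alpha integrin of muscle attachment (197), unc-68, the ryanodine receptor (194), and sup-26, an RNA-binding protein (179). The others were nearest to Y54G2A.72 (171), K11H12.7 (162), col-105, a cuticle collagen (156), cpn-3, a calponin-like protein (151), unc-44, an ankyrin of axons (149), dlc-2, a dynein light chain (148), let-2, a type IV collagen of basement membranes (144), and Y45G5AL.1 (141). Each of these 11 was matched in both replicates. Their ranks reached 99 in replicate 1, at cpn-3, and 214 in replicate 2, at let-2.

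Not every distal peak had this support. In replicate 1, 7 peaks had no region within 100 bp, among them the peaks nearest to ins-13 (signal 86.99) and nhr-70 (74.4), whose replicate 2 signals were 39.9 and 21.9. In replicate 2, 32 peaks had none. The peak nearest to ZK673.2, named after its values were seen, was matched in neither replicate.

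The space that the position rule allows held 21.8 Mb, 21.7% of the nuclear genome, and had 11.0 thresholded peaks per Mb. Within it, 181 peaks (75.7%, 69.9 to 80.7) lay upstream of the nearest protein-coding start and 58 (24.3%) downstream. By base count, 67.8% of the space is upstream of its nearest start, so the density was 12.3 peaks per Mb upstream and 8.27 downstream. With a promoter window of 2000 bp the upstream share was 64.5% (56.7 to 71.6) against 59.1% of bases, so its interval included the base share.

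The distance to the nearest start had a median of 2507 bp (interquartile range 1542.5 to 3985.5), against 2728 bp over all bases of the space, and ran from 848 to 13418 bp. Upstream peaks had a median of 2258 bp and the bases upstream 2599 bp. Downstream peaks had a median of 3561 bp and the bases downstream 3040 bp. Upstream the density was 17.2 peaks per Mb between 1000 and 1500 bp (52 peaks), 10.6 between 3000 and 5000 bp (36 peaks) and 4.07 beyond 10000 bp (2 peaks). Downstream it was 6.81 between 1000 and 1500 bp (5 peaks) and 11.7 between 3000 and 5000 bp (20 peaks). The density upstream was thus highest next to the window, while downstream it was highest between 3000 and 5000 bp, the class with the most of the 58 downstream peaks.

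**Figure D2:**
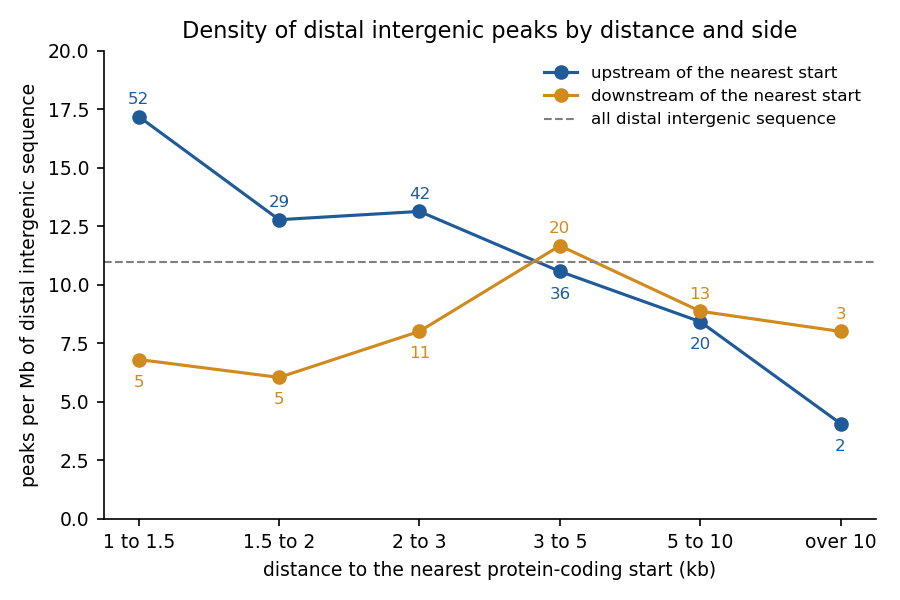
Density of distal intergenic peaks per Mb of distal intergenic sequence (vertical) by distance to the nearest protein-coding start (horizontal, classes in kb), upstream (blue) and downstream (orange); numbers are peaks per class and the dashed line is the density over the whole space, 11.0 per Mb. The upstream line starts at 17.2 and ends at 4.07 (2 peaks), with a small rise from 12.8 to 13.1 in between. The downstream line peaks at 11.7. The 1 downstream peak under 1000 bp is not drawn.

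Only cpn-3 had a distal peak within 1000 bp of its start. That peak lay 848 bp downstream of the start and 89 bp past the end of this short gene. The 5 peaks just inside the upstream limit lay 1004 to 1057 bp from ccb-1, F58D5.5, tag-273, B0252.3 and F13D2.1, with signals of 44.2 to 93.8. The 5 just outside lay 959 to 995 bp from T03G6.3, chd-7, zzz-1, lin-15B and slc-17.2, with signals of 44.4 to 148. Signals on both sides of the limit overlapped, and distance and signal had a Spearman correlation of -0.16 over the 239 peaks.

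The 5 peaks farthest from any start lay beyond 10000 bp. The farthest was 13418 bp upstream of irld-18 on chromosome IV, with a signal of 68.9. A pair of peaks lay 10248 and 11540 bp downstream of the start of snt-1, which encodes synaptotagmin, a calcium sensor of synaptic vesicles, in the gap between snt-1 and egl-27. Their signals were 49.2 and 89.6. The summit nearest to K01F9.2 lay 11516 bp downstream of its start (86.3), and the summit nearest to tol-1, a Toll-like receptor, 10240 bp upstream (98.9).

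The 239 peaks lay in 217 gaps between neighbouring protein-coding genes. Of these gaps 198 held 1 peak, 16 held 2 and 3 held 3. Gaps with a peak had a median length of 6116 bp, against 2386 bp for the 8911 gaps that hold any distal space, and a longer gap offers more of that space. Divergent gaps held 88 peaks (36.8%, 30.96 to 43.1) and 31.1% of the bases, at 13.0 per Mb. Tandem gaps held 134 (56.1%, 49.7 to 62.2) and 53.4% of the bases, at 11.5 per Mb. Convergent gaps, between the ends of both genes, held 17 (7.11%, 4.49 to 11.1) and 15.4% of the bases, at 5.07 per Mb. The interval of the convergent share lay below its base share, and the intervals of the divergent and tandem shares reached theirs.

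By chromosome, the density ran from 8.30 peaks per Mb of distal space on IV to 17.5 on I. Chromosome I held 44 peaks (18.4%, 14.01 to 23.8) in 11.5% of the space. The X chromosome held 64 (26.8%, 21.6 to 32.7) in 23.9% of it, at 12.3 per Mb. The densities were 9.39 on II, 12.5 on III and 8.42 on V. Among the other thresholded peaks, 17.6% lay on I and 23.4% on X.

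Of the distal peaks, 60 (25.1%, 20.03 to 30.97) had another thresholded summit within 5000 bp. The same held for 14.95% of promoter peaks (11.8 to 18.7), 32.7% of intron peaks (26.7 to 39.3) and 21.9% of all 910. The other 179 distal peaks stood alone. The 60 fell into 42 clusters, of which 17 also held a promoter peak and 15 held distal peaks alone. Of the clusters, 17 held at least 2 distal peaks and 1 held 3.

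**Figure D3:**
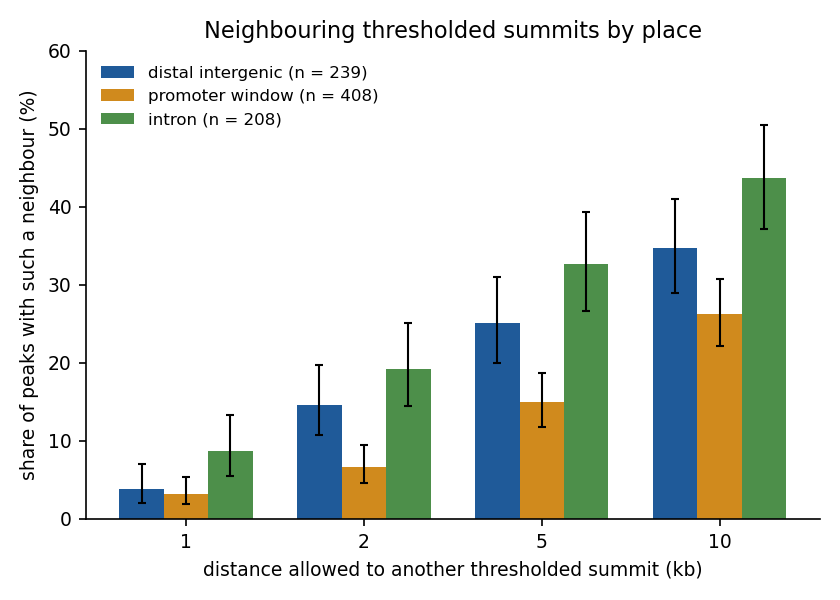
Share of peaks (vertical, %) with another thresholded summit within 1, 2, 5 or 10 kb (horizontal) for distal intergenic, promoter and intron peaks; bars start at 0 and error bars are Wilson 95% intervals. At 5 kb the distal share of 25.1% stands between the promoter share of 14.95% and the intron share of 32.7%.

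The 1 cluster of 3 distal peaks lay on chromosome IV in the tandem gap of 5430 bp between Y54G2A.11 and Y54G2A.12. Its summits stood at 2773481, 2774779 and 2776222, with signals of 46.3, 236 and 171. In replicate 1 these signals were 38.4, 194 and 133, and in replicate 2 they were 9.85, 40.7 and 29.8. The order of the 3 was the same in both replicates, and the lowest ranked 587 in replicate 1 and 8419 in replicate 2. The nearest start of the summit at 2776222 was that of Y54G2A.72.

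The cluster with the most peaks lay at unc-54, which encodes the major myosin heavy chain of body wall muscle, on chromosome I. It held 5 summits at 14862291, 14863601, 14865038, 14865670 and 14867760, with signals of 391, 298, 78.4, 104.2 and 50.2. The first lay in an intron and the second in a promoter window. The third and the fourth were the distal ones, 1556 and 2188 bp upstream of the unc-54 start, with signals of 42.99 and 70.5 in replicate 1 and 34.9 and 35.8 in replicate 2. At tln-1 the distal summit at 1719254 was accompanied by a promoter summit at 1720801 with a signal of 560, so the distal peak was the lower of the pair.

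The 239 peaks had 223 different nearest genes, which is 1.12% of the 19973 protein-coding genes and 1.96% of the 11385 genes that are nearest to any base of the distal space. Of these genes 207 had 1 distal peak and 16 had 2. A thresholded peak also lay in the own promoter window of 14 (6.28%), against 239 genes of the 11385 (2.10%). A thresholded peak lay inside 19 of the 223 genes (8.52%). Of these genes 4 had both kinds, and 194 had neither. The shares of the 11385 genes with a peak inside, with both kinds or with neither were not computed. Counting the genes on both sides of each peak, 430 genes (2.15%) flanked one.

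Among 24 lists of genes by role, muscle filament and attachment genes had the largest share of genes next to a distal peak, and genes of muscle calcium handling the next largest. Of the 63 genes of muscle filaments and their attachment, 11 were the nearest start of a distal peak (17.5%, 10.04 to 28.6), against 1.12% of all protein-coding genes. Only 53 of the 63 were nearest to some base of the distal space, and of these the share was 20.8%. The like share was 1.96% of the 11385 such genes. The genes of the list had 13 peaks in 0.0940 Mb of distal space, 138 per Mb against 11.0 over the whole space. The median signal of these peaks was 104.2 against 61.6 for all distal peaks. Of the 13, 11 lay upstream. The nearness of PAG-3 peaks to muscle genes was known from earlier results of these data, so the count is a description.

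The muscle genes cover the thick filament, the thin filament and the attachment to the membrane. For the thick filament they were unc-54, with the pair given above, and myo-3, the minor myosin heavy chain of body wall muscle, with a peak 1350 bp upstream (signal 69.9, or 55.1 and 17.97 in replicates 1 and 2). For the thin filament, act-1 (actin) had a peak 2881 bp downstream of its start with a signal of 115 (81.8 and 36.03). The peak upstream of lev-11 (tropomyosin) had 77.2 (56.7 and 18.5).

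The troponin I genes unc-27 and tni-1 each had an upstream peak, unc-27 with a signal of 92.1 (72.8 and 19.02) and tni-1 with 84.2 (64.5 and 18.6). The gene unc-87, whose product binds and bundles actin, had a pair at 1364 and 2424 bp upstream with signals of 117 (90.5 and 27.3) and 88.1 (58.9 and 24.3). The calponin-like cpn-3 had 151 (90.8 and 62.2). The attachment and cross-linking genes had the highest of these signals, at atn-1, tln-1 and pat-2, given above, with pat-2 at 139 in replicate 1 and 55.7 in replicate 2. All 13 peaks were matched in both replicates, with ranks of 14 to 463 in replicate 1 and 11 to 754 in replicate 2.

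Of these 11 genes, 5 also had a thresholded peak in their own promoter window. Those promoter signals were 560 at tln-1, 298 at unc-54, 139 at unc-27, 109 at lev-11 and 52.1 at act-1. The distal peak was lower than the promoter peak at tln-1, unc-54, unc-27 and lev-11, and higher at act-1. The other 6 genes, atn-1 and pat-2 among them, had no thresholded peak in their own promoter window.

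Of 31 genes of muscle calcium handling and excitability, 3 had a distal peak (9.68%, 3.35 to 24.9). They were unc-68, the calcium release channel of the sarcoplasmic reticulum, sca-1, its calcium pump, and ccb-1, a beta subunit of voltage-gated calcium channels. The unc-68 peak had a signal of 194 (154 and 36.4), and the sca-1 peak, 7576 bp upstream, had 73.6 (55.02 and 15.4). The ccb-1 peak had 44.2, with 33.3 in replicate 1 and no match in replicate 2. None of the 19 muscle regulators was the nearest start of a distal peak (0 to 16.8%).

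**Figure D4:**
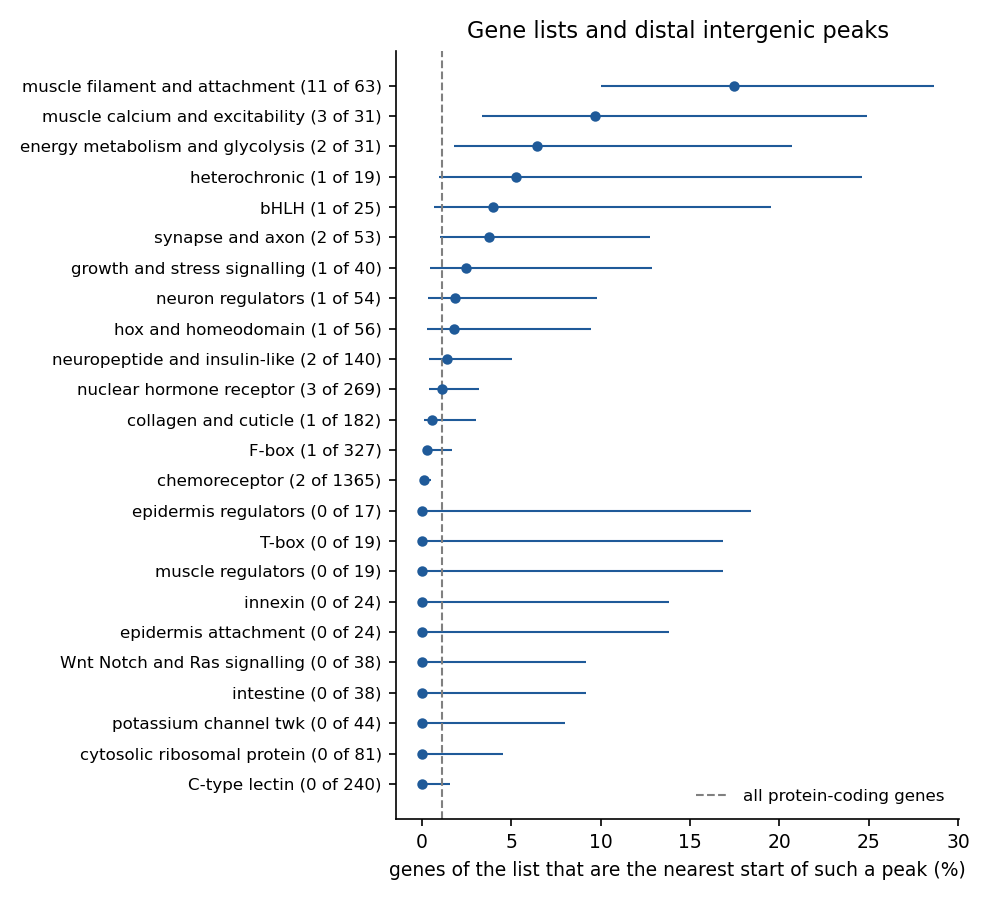
Share of the genes of each list that are the nearest start of a distal intergenic peak (horizontal, %), with Wilson 95% intervals; counts are in the labels and the dashed line is the share of all protein-coding genes, 1.12%. The muscle filament and attachment list is at 17.5%, and 10 lists are at 0.

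PAG-3 has its known roles in neurons. Of 54 neuron regulators, 1 was a nearest start (1.85%, 0.328 to 9.77), lin-32, a proneural bHLH factor, with a summit 2817 bp downstream of its start and a signal of 57.8 (35.8 and 13.8). The genes lin-39, unc-30 and egl-13 flanked a distal peak without being its nearest start. Of 53 genes of synapse and axon, 2 were nearest starts (3.77%, 1.04 to 12.8), snt-1 with the pair given above and unc-44 with a peak 1559 bp upstream (149, or 92.8 and 49.4). The interval of the neuron regulators included the share of all genes, 1.12%, as did that of synapse and axon.

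Single genes stood next to a distal peak in several developmental lists. Of 56 Hox and homeodomain genes it was ceh-13, the anterior Hox gene, with a peak of 59.4 (42.4 and 16.5) 6513 bp upstream in the gap shared with lin-39. Of 19 heterochronic genes it was lin-41, an RNA-binding protein of larval timing, with 54.7 (48.3 and 8.77). Of 25 bHLH genes it was hlh-33 (72.8), and of 40 genes of growth and stress signalling it was cki-1, an inhibitor of cyclin-dependent kinases, with 49.7, 4151 bp upstream. The lin-41 peak ranked 346 in replicate 1 and 12329 in replicate 2, so its support was uneven. The shares were 1.79% of the Hox and homeodomain list (0.316 to 9.45) and 5.26% of the heterochronic list (0.935 to 24.6). They were 4% of the bHLH list (0.710 to 19.5) and 2.5% of growth and stress signalling (0.443 to 12.9). Each interval included the 1.12% of all protein-coding genes.

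Among 31 genes of energy metabolism, aldo-1 (aldolase, 48.3) and pfk-1.1 (phosphofructokinase, 44.7) had a distal peak (6.45%, 1.79 to 20.7). The aldo-1 peak ranked 1006 in replicate 1 and 843 in replicate 2. The pfk-1.1 peak ranked 550 and 17898, so its support in replicate 2 came from far down the list. In larger families, the nearest starts were 3 of 269 nuclear hormone receptors (1.12%, 0.380 to 3.23), nhr-70, nhr-40 and nhr-1. They were also 2 of 140 neuropeptide and insulin-like genes (1.43%, 0.393 to 5.06), nlp-40 and ins-13. Another was 1 of 182 collagen and cuticle genes (0.549%, 0.0971 to 3.05), col-105, and 1 of 327 F-box genes (0.306%, 0.0540 to 1.71), fbxa-141. The intervals of these families included the 1.12% of all protein-coding genes. Of 1365 chemoreceptors, 2 were nearest starts (srap-1 and srg-26). The chemoreceptor share was 0.147% (0.0402 to 0.533), below the 1.12% of all genes. No gene was a nearest start among 24 epidermal attachment genes, 17 epidermal regulators, 38 intestinal genes, 38 genes of Wnt, Notch and Ras signalling, 81 cytosolic ribosomal protein genes, 44 twk potassium channels, 24 innexins, 19 T-box genes and 240 C-type lectins. For the ribosomal list the upper limit was 4.53% and for the C-type lectins 1.58%. Only 33 of the 81 ribosomal genes and 121 of the 240 C-type lectins were nearest to some base of the distal space.

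The distal summits were richer in G and C than the space around them. Within 50 bp of the summit the median GC content was 43.6% (interquartile range 38.6 to 49.5). It was 32.7% both in 209560 windows of the same length that tile the distal space and in the windows on both sides of each summit, whose centres lay 300 bp away. Of the peaks, 177 (74.1%) lay above the upper quartile of the tiles. Promoter peaks had a median of 44.6% and intron peaks 43.6%, and GC and signal had a Spearman correlation of 0.16 over the 239 peaks.

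Of 7 words counted on both strands within 50 bp of the summit, GAGAGA was the most frequent, in 77 peaks (32.2%, 26.6 to 38.4), against 7.11% of the windows to each side and 5.24% of tiles. ATGGCA was in 43 (17.99%, 13.6 to 23.4) against 3.14% and 3.03%, and GACGCA in 24 (10.04%, 6.84 to 14.5) against 2.51% and 1.97%. At least 1 of these 3 words was in 46.9% of the 239 peaks, against 11.9% of the side windows and 9.67% of tiles. Promoter and intron peaks held these words too. GAGAGA was in 24.5% of promoter and 33.7% of intron peaks, ATGGCA in 14.7% and 12.02%, and GACGCA in 14.95% and 9.62%. Each of these intervals overlapped that of the distal peaks, so the 3 words were not particular to distal peaks. The E-box forms CACGTG and, with other middle letters, CAGCTG were each in 14 peaks (5.86%). They were in 1.88% and 2.09% of the side windows and in 1.36% and 1.41% of tiles. TGATAA, a sequence known from intestinal promoters, was in 12.1% of peaks, 10.04% of the side windows and 9.16% of tiles.

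The Gfi1 core AATCAC was in 8 distal peaks (3.35%, 1.71 to 6.46). It was in 3.56% of the side windows and in 5.14% of tiles, so it was not more frequent at the summits than beside them. The summits were richer in G and C than both, and the share of AATCAC was not compared at equal GC content. Promoter peaks held it in 5.39% and intron peaks in 7.21%. The first 3 words of this count were known from earlier results on these data. A word match is a description of letters and does not show binding by a given factor.

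**Figure D5:**
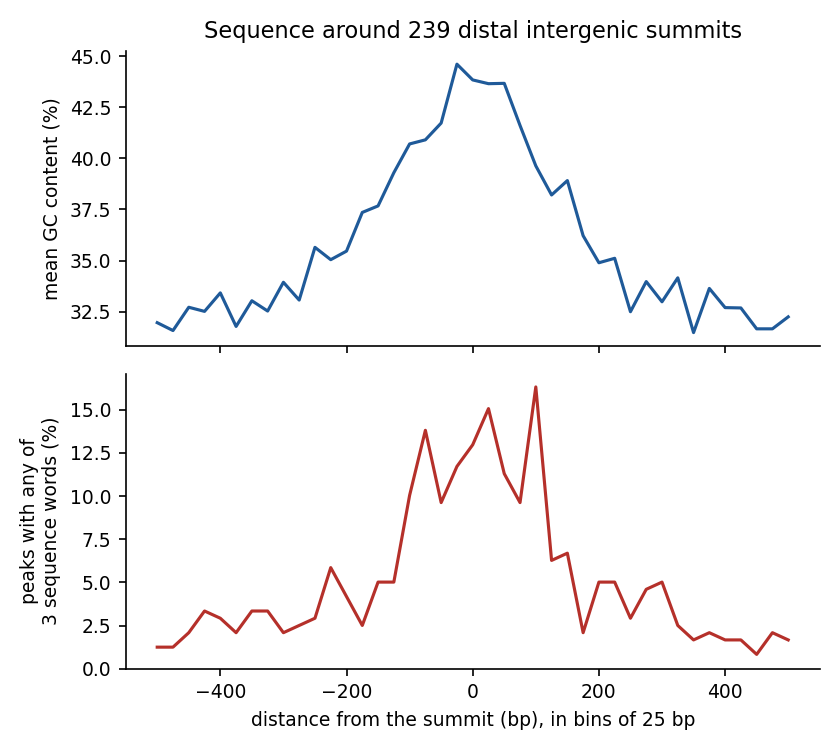
Mean GC content (upper panel, %) and share of the 239 distal intergenic peaks with the repeat GAGAGA or with one of the words ATGGCA and GACGCA (lower panel, %) in bins of 25 bp against distance from the summit (horizontal, bp). GC is 44.6% at 25 bp before the summit and 31.97% at 500 bp before it. The word share is highest, at 16.3%, in the bin at 100 bp after the summit, where GAGAGA alone is in 12.6% of peaks. In the bin at the summit GAGAGA is in 7.11% and ATGGCA in 5.02%, the highest share of ATGGCA in any bin.

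The word TGGCA, chosen after the windows had been read, was in 111 distal peaks (46.4%, 40.2 to 52.8), in 16.9% of the side windows and in 13.7% of tiles. It was in 16 of the 20 highest peaks, and the median signal was 73.8 with it and 57.9 without it. The windows read were those of peaks with high signal, so neither value is independent of the choice of this word. Promoter peaks held it in 38.97% and intron peaks in 40.4%. Because summits differ from tiles in GC, the shares of some words were also taken within classes of GC. This step was added after the words had been counted. TGGCA was in 34.3% of 67 peaks and 14.7% of tiles at 30 to 40% GC, in 58.1% of 117 peaks and 18.4% of tiles at 40 to 50% GC, and in 36.96% of 46 peaks and 16.001% of tiles at 50 to 60% GC. In the same classes GAGAGA was in 17.9%, 36.8% and 45.7% of peaks and in 5.39%, 9.71% and 12.6% of tiles. The longer word TTGGCA, chosen at the same time as TGGCA, was in 16.7% of peaks, 9.41% of the side windows and 6.47% of tiles. In a scan also added then, among all 512 words of 5 letters, with a word and its complement as 1, TGGCA ranked 6 by its ratio to tiles and 32 by its ratio to side windows.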

How the data were processed

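Both replicates were ChIP-seq samples of 1 group, numbered as biological replicates in the labels. Per the file headers and descriptions, the authors made on ce11, against 1 control file, a ranked list of 30000 regions for each replicate and for the pooled reads, described as peaks and background for IDR, and deposited a thresholded set of 910 peaks. The deposited signal is the height the authors' caller gave, on a scale not stated; it ranks and describes peaks within a list. The deposited summit offset (another number, in bp) gave each summit. The sources used here do not give the aligner or the caller. Depth is unknown, so no depth interval was computed; the number of reads limits precision to an unknown degree. Lists on ce10 were not used.

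Gene positions came from the Ensembl annotation of WBcel235 (19973 protein-coding genes, 1 start each) and sequence from the RefSeq genome of that assembly. Intron peaks lie in a protein-coding gene outside exons. Shares have Wilson 95% intervals; base shares were counted exactly. No test was run, since there is 1 group. Python 3.11.15, pandas 2.3.3 and numpy 2.4.6 were used, and the functions were tested on simulated data.

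The peaks and gene lists were chosen with earlier results of these data known. The text names the nearest starts of the 20 highest peaks and the 5 farthest, the genes flanking runs of 3 or more, all nearest starts in lists of at most 60 genes and the 4 with the highest peak in longer lists. Departing from this rule, all 11 nearest starts of the muscle filament and attachment list (63 genes) are named, and, like a few other genes, the 7 beyond the rule were picked with their values in view. The alternatives were other promoter windows (500 and 2000 bp), starts of all transcripts, ignoring non-coding genes, counting piRNA genes, whole peaks, the peaks of higher signal (upper 50%), match distances of 50 and 200 bp, cluster distances of 2 and 10 kb, windows of 25 and 100 bp, either flanking gene and each replicate alone.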

Additional observations from a re-analysis of the deposited data

How the results depend on the processing

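Of 106 recomputed values, 83 stayed within their interval or within 1.5 times the count and 23 moved. A promoter window of 2000 bp left 155 peaks, a median distance of 3550 bp, an upstream share of 64.5% and 7 muscle genes. A window of 500 bp gave a median distance of 1925 bp. The upper 50% of all peaks by signal held 133 distal peaks, with a median signal of 84.4, a median distance of 2258 bp, 88.7% matched in both replicates and 18.05% with a neighbour. Peaks wholly outside genes and windows had a median distance of 2892.5 bp. The share matched in both replicates was 94.1% within 200 bp and 66.5% within 50 bp. The share with a neighbour was 34.7% within 10 kb and 14.6% within 2 kb. GAGAGA was in 55.2% of windows of 100 bp to each side (tiles 9.91%) and 17.99% of those of 25 bp (tiles 2.66%), and median GC was 42.3% and 45.1%. Without replicate 1, GAGAGA was in 20.1% of peaks and median GC was 39.6%, both below the intervals of the full set. Without replicate 2 they were 35.9% and 43.6%, within those intervals. The matched share was 70.7% without replicate 1 and 71.4% without replicate 2. A peak taken from one replicate's list matches itself there, so that matched share counts matches in the other replicate only. The cause of these shifts was not tested.

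The set from 1 replicate held 229 distal peaks without replicate 1, with 127 of the 239 (53.1%), and 248 without replicate 2, with 194 (81.2%). The count of muscle genes was 11 without replicate 1 and 11 without replicate 2; whether these were the same genes was not computed. The median signal was not computed in single-replicate lists, whose scale differs. No paired analysis was possible because both replicates belong to 1 group. Unknown depth limits what the lower peaks can show.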

Other observations

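Genes that do not encode proteins were the nearest gene body of many distal summits. The nearest gene body was not protein-coding for 109 of the 239 peaks (45.6%), and of these 88 were annotated as ncRNA, 6 as pseudogenes, 4 as miRNA genes, 4 as snoRNA genes and 3 as lincRNA genes. A body that is not protein-coding lay within 100 bp of 27 summits (11.3%), while 136 (56.9%) had no gene body within 1000 bp. The position rule sets windows around protein-coding starts but none around other genes, so nearness to other genes is partly fixed by it. The miRNA genes were mir-53, 172 bp from the summit nearest to hrg-5, mir-80, 245 bp from the summit nearest to K01F9.2, mir-2211, 102 bp from the summit nearest to mec-8, and mir-231, 3992 bp from the summit nearest to ceh-13. The spliced leader RNA gene sls-2.2 lay 2 bp from the ins-13 summit. These names were picked with the values in view, and no base share for non-coding genes was computed to set beside these counts.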
